A study of Homo sapiens with 2 samples.

Results

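Bicarbonate transporters and sodium-proton exchangers move acid and base across the plasma membrane. The set described here has 9 genes, picked by gene symbol under a rule that uses no measured value, though with earlier results of these data known, out of 24991 single-gene symbols in the table. It holds 7 genes of the SLC4 family, the sodium-proton exchanger SLC9A2, and SLC9A3R1, which encodes a scaffold protein and not a transporter. RNA was sequenced from PLC/PRF/5, a long-established line of human liver cancer cells, in 2 cultures kept under hypoxia. 1 library came from cells with overexpression of NFX1, which encodes a zinc-finger transcription factor, and 1 library from cells carrying an empty vector (EV). The labels name neither the construct nor the oxygen level, and say nothing of clones or of when the cells were harvested. Neither group has a replicate, so no test across samples could be made, no error between cultures is known, and each difference is one between these libraries.

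Cells that burn glucose to lactate produce acid, which they export to keep the cytosol near neutral. Sodium-proton exchangers of the SLC9 family expel protons, and sodium-coupled bicarbonate transporters of the SLC4 family bring in bicarbonate, which neutralises them. Chloride-bicarbonate exchangers of the same SLC4 family work in the other direction, releasing bicarbonate in exchange for chloride and so loading the cell with acid. In liver, SLC4A2 also supplies the bicarbonate of bile. The study from which the libraries come deals with carnosine, the pH inside tumour cells and immune evasion that depends on lysosomes, and the comparison addresses what NFX1 overexpression changes in hypoxic cells.

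NFX1 itself had 56.0 FPKM (fragments per kilobase of transcript, scaled to library size) in the NFX1 library and 4.21 FPKM in the EV library, 13.3 times as much. Spacing between the lowest values gave an estimated 41.3 fragments per FPKM and kilobase in the NFX1 library and 36.0 in the EV library. Thus 1 FPKM stood for 1.15 times as many fragments in the NFX1 library. How FPKM was scaled between the libraries is not given, so this is not a ratio of all fragments sequenced. The 10 listed hepatocyte markers each reached 1 FPKM in a library, and their summed level was 11087 FPKM in the NFX1 library and 9597 FPKM in the EV library. Albumin was among the lowest of them, with 1.06 FPKM in the NFX1 library and 0.776 FPKM in the EV library. Of 11 listed markers of leukocytes, fibroblasts, endothelium and bile duct cells, KRT7 alone reached 1 FPKM (5.39 FPKM in the NFX1 library and 5.27 FPKM in the EV library). PTPRC, CD3E and CDH5 were listed at 0 in both libraries.

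Upstream sequences are shown for the 3 genes that carry the results below: SLC4A2 and SLC9A3R1, with the highest levels and the largest increases, and SLC4A7, which was lower in the NFX1 library. Each is the 250 bases before an annotated start, from RefSeq on GRCh38.p14, written 5′ to 3′ on the gene's strand. For SLC4A2 the windows of 2 of its 4 starts are shown, a distal one (chr7:151057950-151058199, plus strand) and an internal one (chr7:151062297-151062546, plus strand). For SLC4A7 the window of the upstream one of its 2 starts is shown, chr3:27484385-27484634 on the minus strand. The SLC9A3R1 window is chr17:74748378-74748627 on the plus strand. Capitals mark CACGTG, the E-box core that basic helix-loop-helix factors such as MYC and TFEB bind, which reads alike on both strands and contains ACGTG, the core of hypoxia response elements.
SLC4A2 distal start: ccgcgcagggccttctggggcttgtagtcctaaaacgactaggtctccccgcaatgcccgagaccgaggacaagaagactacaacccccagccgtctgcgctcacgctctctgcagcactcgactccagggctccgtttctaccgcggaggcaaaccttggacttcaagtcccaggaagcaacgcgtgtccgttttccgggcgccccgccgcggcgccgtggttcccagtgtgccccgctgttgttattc
SLC4A2 internal start: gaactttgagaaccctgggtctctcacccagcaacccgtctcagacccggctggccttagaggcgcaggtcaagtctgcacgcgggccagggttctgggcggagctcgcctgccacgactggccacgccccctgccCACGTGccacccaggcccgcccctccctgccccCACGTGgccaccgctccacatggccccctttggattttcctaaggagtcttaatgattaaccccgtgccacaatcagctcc
SLC4A7 start: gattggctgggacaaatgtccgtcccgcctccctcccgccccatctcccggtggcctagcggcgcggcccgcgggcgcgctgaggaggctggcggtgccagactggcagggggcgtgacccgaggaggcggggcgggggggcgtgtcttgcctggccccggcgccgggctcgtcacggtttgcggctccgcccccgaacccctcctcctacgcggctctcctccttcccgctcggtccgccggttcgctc
SLC9A3R1 start: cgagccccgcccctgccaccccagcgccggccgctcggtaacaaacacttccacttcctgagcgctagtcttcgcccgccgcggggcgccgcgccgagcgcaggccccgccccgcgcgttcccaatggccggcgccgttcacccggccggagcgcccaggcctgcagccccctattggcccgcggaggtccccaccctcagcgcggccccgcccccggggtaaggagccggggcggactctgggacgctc
The table held 16 such windows for 7 of the 9 genes, and none was found there for SLC4A1 or SLC4A11. CACGTG was present in 2 of the 16 windows, both at overlapping internal starts of SLC4A2, and in 6.34% of 35116 windows of all genes. ACGTG, searched on both strands, was found in the same 2 windows and in 18.5% of all windows. Other forms of the core of hypoxia response elements were not searched, so its absence from the remaining windows is not shown. A match describes the letters only, and expression in the table is given per gene, so it does not tell which start was in use.

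Levels spanned more than 4 orders of magnitude, and SLC9A3R1 and SLC4A2 stood far above the rest. In the NFX1 library SLC9A3R1 ranked 295 and SLC4A2 662 among the 24991 symbols, and in the EV library they ranked 298 and 723. The next genes, SLC4A11 and SLC4A7, were at 3.86 to 6.12 FPKM in both libraries, and SLC4A4 and SLC4A3 were between 1.34 and 1.76 FPKM. The order of these 6 genes was the same in both libraries, though without replicates neighbours in it, such as SLC4A4 and SLC4A3, cannot be separated beyond counting error. SLC4A8, SLC9A2 and SLC4A1 stayed under 0.3 FPKM.

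**Figure D1:**
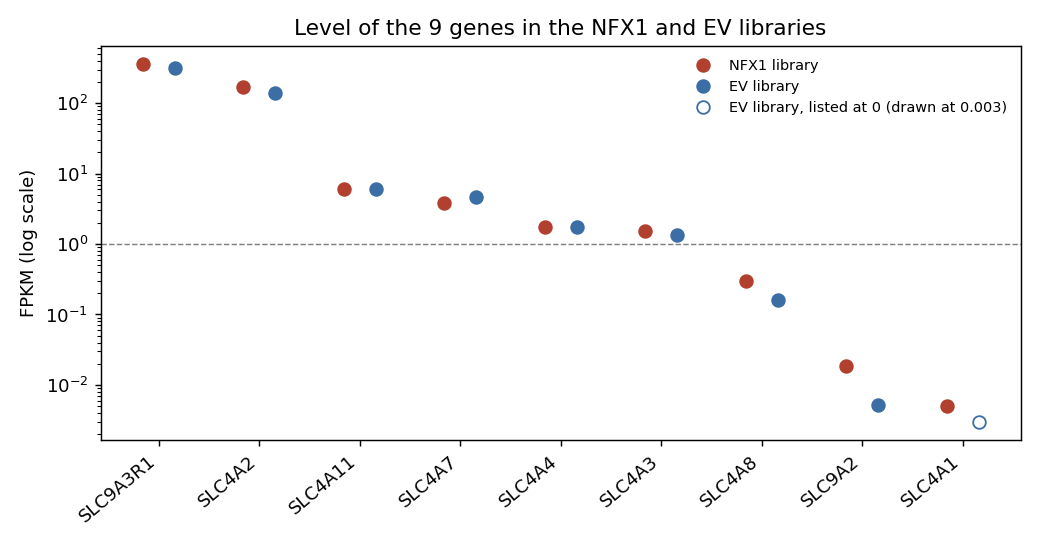
FPKM of the 9 genes on a log scale, 1 point per library, with the NFX1 library left of the EV library; the dashed line marks 1 FPKM and an open circle a value listed at 0. SLC9A3R1 (362 and 314 FPKM in the NFX1 and EV libraries) and SLC4A2 (167 and 137 FPKM) lie far above the other 7 genes, and the points of a gene lie close together except for SLC4A8, SLC9A2 and SLC4A1.

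The change of a gene is given as the log2 ratio of FPKM + 1 in the NFX1 library to that in the EV library. It understates differences at low levels and is read for genes with at least 1 FPKM in a library. SLC4A2, SLC4A3, SLC4A4, SLC4A7, SLC4A11 and SLC9A3R1 met that filter, and SLC4A1, SLC4A8 and SLC9A2 did not. None of the 6 differed 2-fold in either direction, where 0.143% of the 11182 genes kept did. None differed 1.5-fold, where 0.635% did. SLC4A2 alone was at least 1.2-fold higher, where 11.5% of genes were, and none was 1.2-fold lower, where 4.95% were. The median change over the 6 genes was 0.07, beside 0.01 over all genes kept, with 5 of the 6 higher in the NFX1 library. Of all genes kept, 52% were higher. In bulk RNA, a different share of cells that express a gene cannot be told apart from a different amount of RNA per cell.

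Among the chloride-bicarbonate exchangers, SLC4A2 (chromosome 7, 150755299 to 150773614, hg19), the broadly expressed anion exchanger 2, had 167 FPKM in the NFX1 library and 137 FPKM in the EV library. The NFX1 library was thus 21.8% higher, a change of 0.28. An estimated 27678 fragments in the NFX1 library and 19831 in the EV library give an exact (Clopper-Pearson) 95% interval of 19.6% to 24.0% for that increase, a fold of 1.22. This interval and those that follow cover counting error only, not the spread between cultures, and they rest on fragments estimated from FPKM.

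SLC4A3 (chromosome 2, 220492280 to 220506702), anion exchanger 3, best known from heart and brain, had 1.53 FPKM in the NFX1 library and 1.34 FPKM in the EV library. Its change was 0.12, and the interval of the fold, 0.943 to 1.39, includes equality. SLC4A1 (chromosome 17, 42325758 to 42345502), the band 3 anion exchanger of red blood cells, was listed at 0.00508 FPKM in the NFX1 library and at 0 in the EV library, an estimated 1 and 0 fragments. Both values lie under the limit that 3 fragments set, 0.0202 FPKM in the NFX1 library and 0.0231 FPKM in the EV library, so no fold is given. Red-cell membrane partners of band 3 were near the floor as well: of 12 listed erythroid genes, 7 were at 0 in both libraries, among them GYPB, EPB42 and RHAG. The summed level of the 12 was 19.5 FPKM in the NFX1 library and 12.7 FPKM in the EV library, nearly all of it from HBA1 (13.1 and 8.72 FPKM in the NFX1 and EV libraries) and HBA2 (6.03 and 3.63 FPKM).

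Sodium-coupled bicarbonate transporters were at a few FPKM or less. SLC4A7 (chromosome 3, 27414212 to 27525911), an electroneutral sodium-bicarbonate cotransporter, had 3.858 FPKM in the NFX1 library and 4.598 FPKM in the EV library. It was the only one of the 6 genes above the filter with the lower value in the NFX1 library, at a change of -0.20. The fold was 0.839, with a counting interval of 0.751 to 0.939. It rests on 617 fragments in the NFX1 library and 641 in the EV library, where 1 FPKM stands for fewer fragments.

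SLC4A4 (chromosome 4, 72052465 to 72437804), the electrogenic sodium-bicarbonate cotransporter of kidney tubule and pancreatic duct, had 1.76 FPKM in the NFX1 library and 1.74 FPKM in the EV library. The fold of 1.02 had an interval of 0.867 to 1.19, so a difference within that range could not be seen at this depth. SLC4A8 (chromosome 12, 51745730 to 51909547), a sodium-driven chloride-bicarbonate exchanger, had 0.296 FPKM in the NFX1 library and 0.161 FPKM in the EV library. That is a fold of 1.84 with an interval of 1.26 to 2.75, from an estimated 87 and 41 fragments. Among 1790 genes with a mean of 0.1 to 0.5 FPKM, a range and a limit chosen after this value was seen, 11% were at least 1.8-fold higher and 10% at least 1.8-fold lower. SLC4A8 shares its locus in the table with GALNT6, at 4.42 FPKM in the NFX1 library and 5.30 FPKM in the EV library. Strandedness is not given in the sources used here, so reads from the overlap of these genes may be split uncertainly.

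SLC4A11 (chromosome 20, 3207328 to 3223307) belongs to the family by sequence but conducts protons or ammonia and water rather than bicarbonate, and is known from corneal endothelium. It had 6.12 FPKM in the NFX1 library and 5.99 FPKM in the EV library, a fold of 1.02 with an interval of 0.914 to 1.14.

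Summed over the 7 SLC4 genes the level was 180.6 FPKM in the NFX1 library and 151 FPKM in the EV library, a log2 ratio of 0.26 with a counting interval of 0.23 to 0.28. SLC4A2 made up 92.5% of that sum in the NFX1 library and 90.8% in the EV library. Without it the sum was 13.6 FPKM in the NFX1 library and 13.8 FPKM in the EV library, a ratio of 0.982 with an interval of 0.920 to 1.05. The chloride-bicarbonate exchangers summed to 168.5 FPKM in the NFX1 library and 138.5 FPKM in the EV library. For SLC4A4, SLC4A7 and SLC4A8 together the sum was 5.92 FPKM in the NFX1 library and 6.49 FPKM in the EV library, a ratio of 0.911 with an interval of 0.835 to 0.995. Per length, the level of the acid-loading exchangers was 28.5 times that of these sodium-coupled transporters in the NFX1 library and 21.3 times in the EV library. These sums and ratios are as deposited, before removal of the trend on GC content, length and expression given below. SLC4A2 has 63.2% GC, SLC4A7 43.4% and SLC4A4 44.5%. With that trend removed, the changes were 0.07 for SLC4A2, -0.07 for SLC4A7 and 0.15 for SLC4A4.

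SLC9A2 (chromosome 2, 103236148 to 103327809), sodium-proton exchanger 2 of gut and kidney epithelium, had 0.0183 FPKM in the NFX1 library and 0.00527 FPKM in the EV library. These values correspond to an estimated 4 fragments and 1 fragment, and the counting interval of the fold, 0.345 to 172, reaches far to both sides of equality. SLC9A3R1 (chromosome 17, 72744751 to 72765499), also called NHERF1, is a PDZ-domain scaffold that ties transporters such as sodium-proton exchanger 3 to ezrin and the actin cortex. It was the most abundant of the 9, with 362 FPKM in the NFX1 library and 314 FPKM in the EV library. Its change was 0.20 and its fold 1.15, with a counting interval of 1.13 to 1.18.

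In the authors' deposited table, 7 of the 9 genes were tested and none was marked as significant, beside 18 of 14994 rows. The p-values of the 7 ran from 0.284 for SLC4A2 to 0.941 for SLC4A4 in the authors' deposited table, and the q-value of each was 0.999. With a single library on each side, such p-values hold no measure of how cultures vary.

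The changes of these genes lay near those of other genes with the same base composition. When genes were split by transcript GC content into 5 equal groups, the median change was -0.11 in the group poorest in GC (median 39.8% GC) and 0.20 in the group richest in it (median 62.5% GC). SLC4A2, at 63.2% GC, had a change of 0.28, while 517 genes within 1 percentage point of that GC content had a median of 0.20, with the 10th percentile at 0.01 and the 90th at 0.35. SLC4A3 has the same GC content, and its change of 0.12 lay below that median. SLC9A3R1, at 59.3% GC and a change of 0.20, stood beside a median of 0.18 over 727 genes, and SLC4A11, at 59.1% GC and a change of 0.03, beside 0.18 over 754 genes. At the other end SLC4A7, at 43.4% GC and a change of -0.20, stood beside a median of -0.11 over 902 genes, with the 10th percentile at -0.25. SLC4A4, at 44.5% GC, had a change of 0.01 beside a median of -0.10 over 889 genes. Each of the 6 changes lay between the 10th and the 90th percentile of its own GC window.

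**Figure D2:**
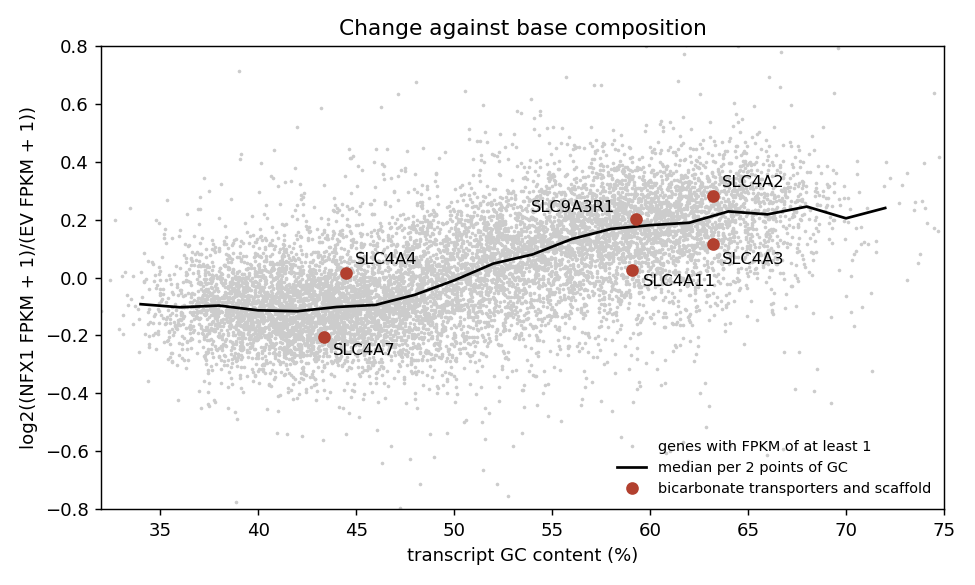
Change (log2 of NFX1 over EV, FPKM + 1) against transcript GC content in percent; grey points are genes with at least 1 FPKM in a library, the black line is their median per 2 percentage points, and red points are the 6 named genes; a few genes beyond the drawn range of the axes are left out. The line climbs with GC content; SLC4A2 (0.28) and SLC4A4 (0.01) lie above it and SLC4A11 (0.03), SLC4A3 (0.12) and SLC4A7 (-0.20) below it.

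A spline trend on GC content, transcript length and expression, fitted to genes within 2-fold of equality, took 41.6% of the variance of the change, and GC content alone 38.2%. After its removal the change of SLC4A2 was 0.07, with a counting interval of 0.04 to 0.09, and that of SLC9A3R1 was -0.03. SLC4A7 was then at -0.07, with an interval of -0.20 to 0.06 that includes 0, and SLC4A3 at -0.03 (-0.19 to 0.15). SLC4A11 was at -0.10 (-0.24 to 0.04). SLC4A4 moved the other way, to 0.15 with an interval of 0.01 to 0.30. The median over the 6 genes was then -0.03, with 2 higher and 4 lower, and none was beyond 1.2-fold, where 6.55% of 10620 genes were. The origin of the trend was not tested, and its removal also removes any real change that follows GC content.

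**Figure D3:**
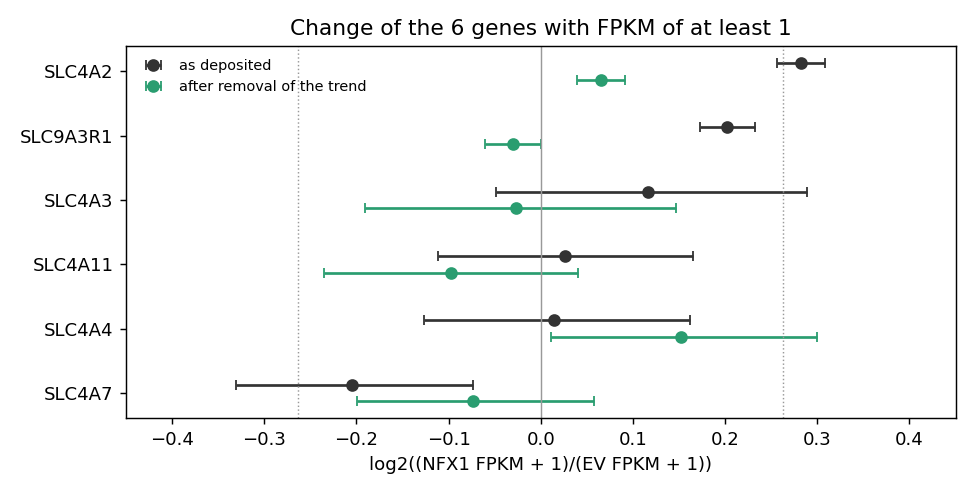
Change of the 6 genes with at least 1 FPKM, as deposited (black) and after removal of the trend (green); bars are 95% counting intervals and dotted lines mark 1.2-fold. As deposited, SLC4A2 (0.28) and SLC9A3R1 (0.20) lie to the right of 0 and SLC4A7 (-0.20) to the left; after removal of the trend the values run from -0.10 to 0.15.

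Other genes of pH control were read from lists put together with earlier results of these data known. The remaining SLC4 genes were low: SLC4A5 and SLC4A9 stayed under 0.65 FPKM in both libraries and SLC4A10 was listed at 0. Of 12 other SLC9 exchangers 6 had at least 1 FPKM, 4 of them higher and 2 lower in the NFX1 library. Their median change was 0.02. None of the 6 was beyond 1.2-fold, a limit that 11.5% of all genes kept passed as higher and 4.95% as lower. SLC9A7, 1 of the 2 lower genes, had 0.976 FPKM in the NFX1 library and 1.01 FPKM in the EV library. It met the filter of 1 FPKM through the EV library only, so it could count only as lower. The counts and the median include it. The Golgi exchanger SLC9A8 had a change of 0.13 and SLC9A5 one of 0.15.

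Of 11 SLC26 anion exchangers, SLC26A6 and SLC26A7 had no row of their own and 4 reached 1 FPKM, 3 higher and 1 lower. SLC26A1, a sulfate and bicarbonate exchanger of the liver, had 15.5 FPKM in the NFX1 library and 12.6 FPKM in the EV library. It was the only one of the 4 beyond 1.2-fold, where 11.5% of all genes kept were higher and 4.95% lower. Its change was 0.28, or 0.08 with the trend subtracted. SLC26A2, a sulfate transporter, had a change of -0.18, and SLC26A10 and SLC26A11 had 0.01 and 0.06. For proton-coupled lactate export, the transporter SLC16A1 had 17.3 FPKM in the NFX1 library and 17.0 FPKM in the EV library. Its partner BSG had 1215 FPKM in the NFX1 library and 1135 FPKM in the EV library, a change of 0.10, or -0.16 with the trend subtracted. The lactate exporter SLC16A3 stayed under 1 FPKM, with 0.410 FPKM in the NFX1 library and 0.554 FPKM in the EV library.

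Carbonic anhydrases, most of which make bicarbonate from carbon dioxide, included the genes that differed most within these lists. Of 15 listed, 7 had at least 1 FPKM, 2 higher and 5 lower. 1 was beyond 1.2-fold higher and 3 were beyond 1.2-fold lower, limits that 11.5% and 4.95% of all genes kept passed. CA4 had 5.97 FPKM in the NFX1 library and 4.19 FPKM in the EV library, a change of 0.43, and CA12 had 0.641 FPKM in the NFX1 library and 1.17 FPKM in the EV library, a change of -0.40. CA2 and CA3, which share a locus in the table and are therefore uncertain, had changes of -0.26 and -0.36. CA9, the most abundant of the 15, had 134.6 FPKM in the NFX1 library and 131.7 FPKM in the EV library. The change of CA9 was 0.03, or -0.20 with the trend subtracted. After removal of the trend CA4 was at 0.27, CA12 at -0.37, CA2 at -0.22 and CA3 at -0.25. CA4 and CA12 alone of the 7 then remained beyond 1.2-fold, where 6.55% of 10620 genes were. CA12 met the filter of 1 FPKM through the EV library only, where it was higher. Its place among the lower genes is therefore tied to that filter.

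Among 17 scaffolds and regulators of these transporters, 14 had at least 1 FPKM, 6 higher and 8 lower, at a median change of -0.01. WNK4, a kinase that controls salt transporters, had 4.87 FPKM in the NFX1 library and 3.57 FPKM in the EV library. Its change was 0.36, or 0.22 with the trend subtracted. WNK4 was the only one of the 14 beyond 1.2-fold, where 11.5% of all genes kept were higher and 4.95% lower. The related kinase WNK1 had a change of -0.16 and its substrate OXSR1 one of -0.17. Radixin (RDX), which like ezrin binds the SLC9A3R1 scaffold, had 27.4 FPKM in the NFX1 library and 30.6 FPKM in the EV library.

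**Figure D4:**
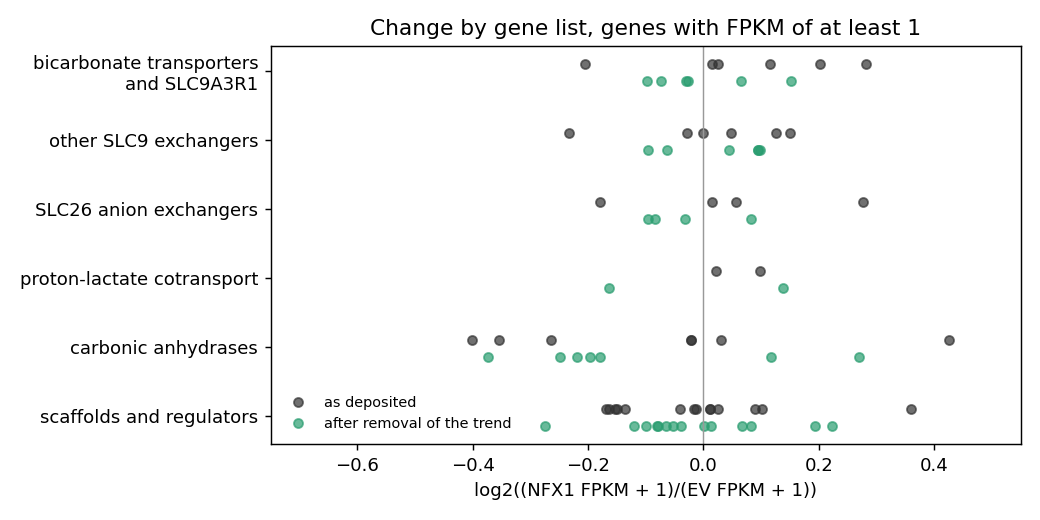
Change of the genes with at least 1 FPKM in each list, 1 point per gene, as deposited (black) and after removal of the trend (green). The 6 bicarbonate transporters and scaffold span -0.20 to 0.28 as deposited, within the span of the carbonic anhydrases, which reach from -0.40 (CA12) to 0.43 (CA4). CA12, and SLC9A7 among the other SLC9 exchangers, met the filter of 1 FPKM through the EV library only.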

How the data were processed

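PLC/PRF/5 cultures under hypoxia, 1 with NFX1 overexpression and 1 with an empty vector, were grouped by their genotype label. TopHat2 2.1.0, Cufflinks 2.2.1 and hg19 are named in the submitters' processing notes; annotation, strandedness and the scaling between libraries are not given in the sources used here. Per the file headers the authors deposited FPKM for each library. The columns they added per the file headers are the log2 fold change, a score of their test, its p-value and a q-value.

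Of 28658 rows, 1651 had no symbol and 492 several. A symbol can repeat, which was so for 491 symbols but for none of the 9 genes; the most abundant row then stood for it. Changes used a pseudocount of 1 and a filter of 1 FPKM. Starts of loci count from 1.

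Depth was estimated from genes over 1000 bases with 1 coding transcript in GENCODE 29: the step that best made low FPKM times length whole (fragment length 250 bases) had a score (mean cosine) of 0.613 in the NFX1 library and 0.675 in the EV library, where other steps had medians of -0.13 and -0.14. Transcript lengths and GC content are medians over coding transcripts, matched by symbol for 95.0% of genes kept, without coordinates. Intervals and floors cover counting error only; those of summed FPKM are first-order approximations on the log scale.

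All 9 genes and NFX1 are named, and up to 4 genes of each other list by size of change. Markers, SLC4A5, SLC4A9, SLC4A10, SLC9A7, SLC16A3, CA9, GALNT6 and genes without a row of their own were named outside that rule. Some further genes are left unnamed and remain in counts and medians only. The rule for the 9 genes uses symbols only, but these genes and the other lists were chosen with earlier results of these data known. The steps were tested on simulated libraries. Alternatives covered pseudocounts (0.1 and 5), filters, 3 scalings, summed rows, row status, fold limits and removal of the trend. Software was Python 3.11.15 with scikit-learn 1.9.0, numpy 2.4.6, scipy 1.17.1, pandas 2.3.3 and matplotlib 3.10.9.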

Additional observations from a re-analysis of the deposited data

How the results depend on the processing

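The count of 0 genes beyond 2-fold was 0 under each alternative tried at that limit, 0 at a limit of 1.5-fold, and 1 (SLC4A2) at 1.2-fold. The log2 ratio of the summed SLC4 FPKM, 0.26, was 0.18 with both libraries scaled to the same FPKM sum and 0.21 with upper-quartile scaling, outside its counting interval but in the same direction. The median change over the 6 of the 9 genes that met the filter was 0.07. It ran from -0.03 with the trend removed to 0.20 with a filter of 5 FPKM, which leaves 3 genes. Of 72 values of single genes under alternatives, 61 stayed within the gene's counting interval. Filters, summed rows and row status return the value of a single gene unchanged, and a pseudocount cannot change its sign. Only the scalings and the removals of the trend could change a sign, so this count and those of kept signs overstate stability. SLC4A2 kept its sign in all 12 of its alternatives, from 0.07 to 0.28, and SLC4A7 in all 11, from -0.26 to -0.07. SLC9A3R1 changed sign in 1 of 12, SLC4A3 in 2 of 11, SLC4A4 in 2 of 11 and SLC4A11 in 4 of 12. The trend on GC content alone and the ratio without a pseudocount were added after seeing the data. No paired analysis was possible because each group has 1 library, and no replicate could be left out. Depth limits SLC4A1, SLC4A8 and SLC9A2.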
